A study of Mus musculus with 24 samples.

Results

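The proneural basic helix-loop-helix (bHLH) genes were examined as a set of 9 members chosen by symbol, namely the neurogenins Neurog1, Neurog2 and Neurog3, the atonal homologue Atoh1, the NeuroD genes Neurod1, Neurod2, Neurod4 and Neurod6, and Bhlhe22. All 9 were found among the 22667 genes of the expression table. Poly(A)+ RNA had been sequenced from mouse embryonic stem cells (ESCs) kept in 2i medium, neural progenitor cells (NPCs) at day 7 of adherent differentiation, cells purified at day 10 with beads against the polysialylated adhesion molecule PSA-NCAM (PSA-NCAM+ cells), and neurons replated at day 7 and grown for 14 further days. Each stage was represented by 3 replicates of wild-type cells (WT, labelled wt/wt) and 3 of slow/slow cells (labelled Polr2a[R749H/R749H]), which carry on both alleles a substitution in the largest subunit of RNA polymerase II that the study describes as slowing elongation. Per the study's methods, the slow/slow line was made from E14 ESCs by successive targeting of both alleles, and the number of clones behind these samples is not given in the sources used here. At the start of differentiation WT cells had been plated at 10000 and slow/slow cells at 30000 per cm2, so that the effects of plating density and genotype cannot be told apart after the ESC stage.

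Proneural factors are transcription factors that pair with ubiquitous E proteins and bind the E-box, a short DNA element. In the embryonic nervous system, neurogenins and Atoh1 act in dividing progenitors, where they start neuronal differentiation and raise Notch ligands on the cell surface, and Notch signalling in turn represses them in neighbouring cells through Hes proteins. NeuroD factors mostly act later, in cells that are leaving or have left the cell cycle, and Id proteins block the whole family by binding E proteins.

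Total counts per sample ranged from 32974432 to 104466886. Levels are given as counts scaled to library size with TMM factors (CPM), and 3 counts in a library, the limit that a count of 0 allows, corresponded to between 0.0289 and 0.0929 CPM. These limits cover counting error only. A change was called when the false discovery rate (FDR) of edgeR's quasi-likelihood test, adjusted over all 16627 genes tested, was under 0.05. Log2 changes are given with their standard error (SE). All 9 members passed the filter on low counts, but Neurod2 and Neurod6 passed it only through the neuron groups. The study's methods describe RNA from independent differentiation experiments for ESCs, NPCs and neurons, and the sources used here do not say so for PSA-NCAM+ cells, whose spread may be technical in part. The slow/slow PSA-NCAM+ replicates stood apart from each other, with a lowest pairwise correlation of log2 levels of 0.965 (WT 0.982) against 0.997 or more in ESCs, NPCs and neurons, and the members' genotype changes at that stage are also given without slow/slow replicate 1.

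The members are short genes on 6 chromosomes, with a median span of 3344 bp against 18047 bp for the genes of the table, and each has a single coding exon in the GENCODE annotation of GRCm38. Neurog1 lies on chromosome 13 (56250478 to 56252163, minus strand), Neurog2 on chromosome 3 (127633135 to 127635631, plus strand), Neurog3 on chromosome 10 (62133090 to 62134763, plus strand) and Atoh1 on chromosome 6 (64729125 to 64731245, plus strand). Neurod1 lies on chromosome 2 (79452521 to 79456751, minus strand), Neurod2 on chromosome 11 (98325415 to 98329648, minus strand), Neurod4 on chromosome 10 (130268152 to 130280240, minus strand), Neurod6 on chromosome 6 (55677822 to 55681263, minus strand) and Bhlhe22 on chromosome 3 (18054174 to 18057517, plus strand). Neurog3 lies entirely within Fam241b on the opposite strand, and Neurod1 within Cerkl on the same strand. The library kit was stranded, but whether the counts used strand is not given in the sources used here, so reads of these members and of the surrounding genes may not be told apart.

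The promoters of 5 members are shown. Neurog1 and Neurog2 had the highest folds in slow/slow neurons, Neurog3 and Neurod4 differed between genotypes in their course of expression, and Neurod2 is shown for its motif, as it was the only member with the E-box form CAGATG, which neurogenins and NeuroD factors are known to bind. Each run is the 300 bases from 250 before to 50 after the RefSeq start (GRCm38.p6), written 5′ to 3′ on the strand of the gene, with every E-box (CANNTG, a pattern that is its own reverse complement) in capitals. The Neurog2 window holds no E-box and is shown for comparison. The intervals are chr13:56252131-56252430 for Neurog1, chr3:127632886-127633185 for Neurog2, chr10:62132840-62133139 for Neurog3, chr11:98329596-98329895 for Neurod2 and chr10:130280089-130280388 for the second listed start of Neurod4.
Neurog1: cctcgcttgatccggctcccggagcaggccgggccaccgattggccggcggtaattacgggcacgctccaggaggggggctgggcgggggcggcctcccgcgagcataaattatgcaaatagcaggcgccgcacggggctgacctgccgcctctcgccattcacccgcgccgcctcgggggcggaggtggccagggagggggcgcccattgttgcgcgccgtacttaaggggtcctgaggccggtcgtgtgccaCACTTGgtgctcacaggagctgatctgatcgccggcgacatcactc
Neurog2: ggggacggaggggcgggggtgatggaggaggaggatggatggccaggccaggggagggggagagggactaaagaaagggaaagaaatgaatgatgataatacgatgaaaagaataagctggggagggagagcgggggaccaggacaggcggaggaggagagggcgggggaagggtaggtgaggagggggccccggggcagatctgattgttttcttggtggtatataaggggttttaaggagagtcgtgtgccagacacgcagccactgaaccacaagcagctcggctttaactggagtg
Neurog3: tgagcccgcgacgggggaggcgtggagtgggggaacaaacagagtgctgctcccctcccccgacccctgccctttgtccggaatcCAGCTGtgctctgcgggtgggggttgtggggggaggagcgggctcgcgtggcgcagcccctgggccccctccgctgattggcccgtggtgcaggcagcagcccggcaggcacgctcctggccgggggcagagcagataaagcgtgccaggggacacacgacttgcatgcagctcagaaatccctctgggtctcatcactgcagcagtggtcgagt
Neurod2: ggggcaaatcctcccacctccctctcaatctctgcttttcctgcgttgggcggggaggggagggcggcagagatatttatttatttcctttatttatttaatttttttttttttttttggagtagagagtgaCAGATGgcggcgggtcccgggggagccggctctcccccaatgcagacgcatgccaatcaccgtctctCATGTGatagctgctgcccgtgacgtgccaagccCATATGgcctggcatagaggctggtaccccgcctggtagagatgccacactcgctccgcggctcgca
Neurod4: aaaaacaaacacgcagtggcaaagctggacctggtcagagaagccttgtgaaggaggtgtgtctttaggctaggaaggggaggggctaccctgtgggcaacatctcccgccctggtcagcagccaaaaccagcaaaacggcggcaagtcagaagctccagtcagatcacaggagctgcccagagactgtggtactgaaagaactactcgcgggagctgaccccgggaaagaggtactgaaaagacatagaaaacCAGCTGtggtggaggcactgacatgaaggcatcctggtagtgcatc

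Promoter sequences were matched for 8 of the 9 members. An E-box was present in 6 of these 8, against 72.3% of the 32851 RefSeq promoters of that length. Neurod4 has 2 listed starts, of which only the second holds an E-box, and it was counted once. The share over all promoters counts each window by itself. CAGATG, searched on both strands and itself one form of the E-box, was found in 1 member (Neurod2) against 17.2% of all promoters, and CACNAG, the N-box bound by Hes repressors, searched on both strands, in 5 members against 42.5%. The letters TATAAA, searched on both strands, occurred in 0 of the 8 against 13.6% of all promoters. GC content was 69.3% in the Neurog1 promoter, 68.3% in that of Neurog3 and 46.3% in that of Neurod6, with a median of 52.7% over all promoters.

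In neurons all 9 members were higher in slow/slow than in WT cells, by between 1.91-fold for Bhlhe22 and 28.9-fold for Neurog1. All 9 were called higher, where 51.9% of all genes tested were called in that comparison and 23.4% were called higher. The 3 slow/slow samples lay above the 3 WT samples for 9 of 9 members, while groups did not overlap for 75.6% of all genes tested. The median log2 change of the members was 2.56, against -0.06 for all genes tested. Summed over the 9 members, WT neurons held 23.96, 27.1 and 28.2 CPM and slow/slow neurons 130.3, 165.9 and 168.9 CPM. Reads of the 3 neurogenins, not corrected for length, made up 12.9% to 19.7% of that sum in WT and 54.3% to 59.0% in slow/slow neurons. In bulk samples, more cells of a type and more RNA per cell cannot be told apart.

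**Figure D1:**
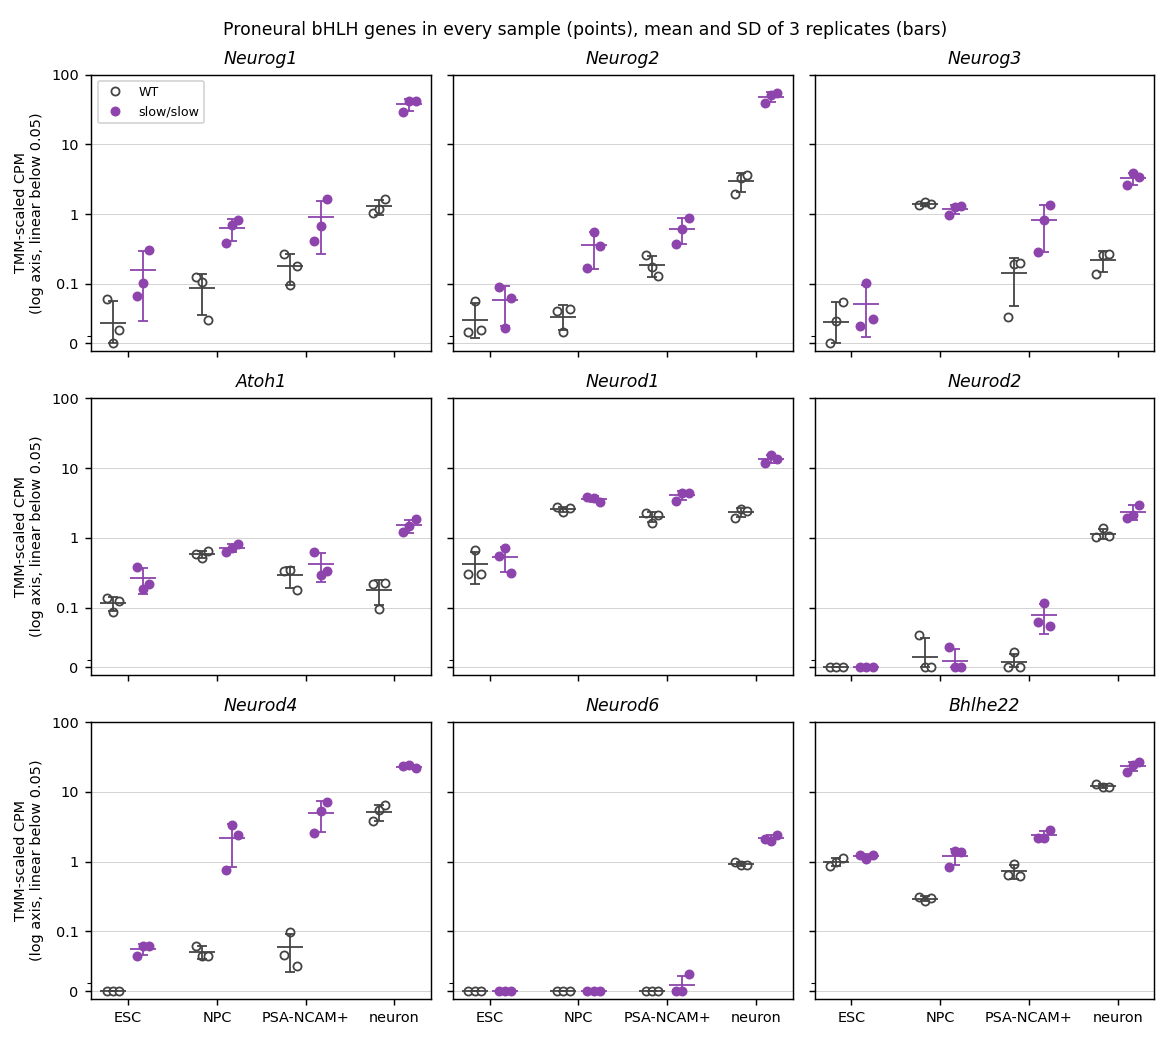
TMM-scaled CPM of each member in all 24 samples (vertical axis, logarithmic above 0.05 CPM and linear below) by stage (horizontal axis), with open symbols for WT and filled symbols for slow/slow replicates and bars for the mean and SD of 3 replicates. In neurons the slow/slow samples lie above the WT samples in every panel, and Neurod2 and Neurod6 are near 0 before the neuron stage.

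Neurog1 and Neurog2, which commit progenitors to the neuronal fate, showed the highest folds in neurons. Neurog1 stood at 1.03, 1.17 and 1.66 CPM in WT neurons and at 28.6, 41.8 and 42.1 CPM in slow/slow neurons. Neurog2 stood at 1.93, 3.34 and 3.63 CPM in WT neurons and at 39.5, 51.3 and 54.0 CPM in slow/slow neurons. The groups were far apart for both genes, with every slow/slow sample above every WT sample. The log2 changes were 4.85 ± 0.45 for Neurog1 (SE, FDR 3.33e-08) and 4.02 ± 0.33 for Neurog2 (FDR 5.41e-09), and in 6 fits made without a neuron sample they ranged from 4.71 to 5.08 and from 3.78 to 4.18.

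Before the neuron stage both genes were expressed at low levels, and in slow/slow cells they were already higher in NPCs. Neurog1 was at 0.125, 0.106 and 0.0300 CPM in WT NPCs and at 0.388, 0.692 and 0.813 CPM in slow/slow NPCs (log2 change 2.84 ± 0.62, FDR 0.000706). Neurog2, with only 6 counts in all over the WT NPC samples, was at 0.0416, 0.0151 and 0.0450 CPM there and at 0.168, 0.549 and 0.345 CPM in slow/slow NPCs (log2 change 3.25 ± 0.62, FDR 0.000196). Groups did not overlap for either gene. In PSA-NCAM+ cells Neurog1 was at 0.266, 0.0973 and 0.179 CPM across WT samples and at 0.408, 0.682 and 1.64 CPM in slow/slow cells, and Neurog2 at 0.254, 0.175 and 0.130 CPM and at 0.368, 0.618 and 0.873 CPM. Both differences were called, at log2 changes of 2.29 ± 0.50 (FDR 0.000715) and 1.72 ± 0.40 (FDR 0.00112), and without slow/slow replicate 1 they were 2.60 and 1.96. With only PSA-NCAM+ samples fitted, the FDRs were 0.0420 and 0.0371, or 0.0388 and 0.0489 with the replicate number as a block.

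Across the 8 groups, the means of Neurog1 and Neurog2 fell in the same order, led by slow/slow neurons and then WT neurons. For Neurog1 slow/slow PSA-NCAM+ cells overlapped WT neurons above them and slow/slow NPCs below them in that order, and slow/slow NPCs did not overlap WT PSA-NCAM+ cells, the next group. From WT PSA-NCAM+ cells down, each group overlapped the next as far as WT ESCs, the lowest at a mean of 0.0262 CPM ± 0.0312 (SD, n = 3). For Neurog2 the neuron groups stood clear of all others, and slow/slow ESCs, WT NPCs and WT ESCs overlapped at means of 0.0576, 0.0339 and 0.0302 CPM. In ESCs neither difference between genotypes was called (Neurog1 log2 change 2.15 ± 0.99, FDR 0.0895, and Neurog2 1.06 ± 0.99, FDR 0.419), on totals of 5 and 4 counts over the 3 WT samples. DESeq2 called the Neurog1 difference (2.29, FDR 0.0209), but 0 of 6 fits made without an ESC sample did (highest FDR 0.358).

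Neurog3, best known for starting the endocrine lineage of the pancreas and also expressed in parts of the developing nervous system, took another course. It was at 1.33, 1.46 and 1.38 CPM in WT NPCs and at 0.970, 1.24 and 1.28 CPM in slow/slow NPCs. All WT samples lay above the slow/slow ones there, but the difference was small and not called (log2 change -0.27 ± 0.44, FDR 0.625). In WT cells it then fell, to 0.0347, 0.195 and 0.195 CPM in PSA-NCAM+ cells and 0.138, 0.257 and 0.270 CPM in neurons. In slow/slow cells it was at 0.286, 0.821 and 1.35 CPM in PSA-NCAM+ cells and at 2.58, 3.83 and 3.43 CPM in neurons. The slow/slow samples therefore lay above the WT samples at both later stages, by log2 changes of 2.65 ± 0.54 (FDR 0.000309) and 3.86 ± 0.50 (FDR 2.21e-06). The first of these was not called when only PSA-NCAM+ samples were fitted (FDR 0.0570), was called when the replicate number was added to that fit as a block (FDR 0.00708), and was 3.07 without slow/slow replicate 1.

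The step from NPCs to neurons went down for Neurog3 in WT cells (log2 change -2.62 ± 0.49, FDR 5.59e-05) and up in slow/slow cells (1.50 ± 0.44, FDR 0.00420), and the difference between these steps was called (4.12 ± 0.66, FDR 2.76e-05). From NPCs to PSA-NCAM+ cells the WT decrease was -3.38 ± 0.53 on the log2 scale (FDR 6.07e-05), the slow/slow change of -0.46 ± 0.44 was not called (FDR 0.420), and the genotypes differed by 2.92 ± 0.69 (FDR 0.00816). Fam241b, in which Neurog3 lies, averaged 38.4 CPM ± 2.79 (SD, n = 3) across WT neurons but 25.6 CPM ± 1.87 across slow/slow neurons, a log2 change of -0.58 ± 0.11, opposite in sign to that of Neurog3. Fam241b was also lower in slow/slow NPCs, with means of 10.3 CPM there and 23.2 CPM in WT NPCs (-1.17 ± 0.11, FDR 5.68e-08). That sign matched the uncalled Neurog3 change in NPCs. In ESCs the signs were opposite (Fam241b -0.67 ± 0.11, Neurog3 not called). In PSA-NCAM+ cells Fam241b averaged 11.6 CPM in both genotypes. From NPCs to that stage its mean thus fell in WT cells only, the genotype in which the Neurog3 decrease was called. From NPCs to neurons its mean rose in both genotypes, unlike Neurog3 in WT cells. The 5 endocrine pancreas markers summed to between 0.0963 and 0.164 CPM in WT neurons and between 0.162 and 0.357 CPM in slow/slow neurons, with Ins1 at 0 counts in all 6 samples and Pdx1, the only marker tested, lower in slow/slow neurons (-2.46 ± 0.77, FDR 0.0111). The part of reads from Fam241b or of such cells in the Neurog3 level was not tested.

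Atoh1, which drives the formation of cerebellar granule neurons and inner-ear hair cells, also separated the genotypes in neurons. It was at 0.582, 0.513 and 0.645 CPM in WT NPCs and at 0.621, 0.716 and 0.813 CPM in slow/slow NPCs, where the groups overlapped and no change was called (log2 change 0.29 ± 0.32, FDR 0.457). In neurons it was at 0.215, 0.0963 and 0.221 CPM across WT samples and at 1.19, 1.48 and 1.84 CPM in slow/slow cells. All slow/slow neuron samples lay above all WT ones (log2 change 3.03 ± 0.35, FDR 5.05e-07). From NPCs to neurons Atoh1 fell in WT cells (-1.67 ± 0.35, FDR 0.000220) and rose in slow/slow cells (1.07 ± 0.31, FDR 0.00453), and the steps differed by 2.73 ± 0.47 (FDR 6.70e-05).

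In ESCs Atoh1 was the only member called, where 40.4% of all genes tested were called and 18.5% were called higher. Its levels there were 0.137, 0.0861 and 0.126 CPM across WT samples and 0.384, 0.184 and 0.217 CPM in slow/slow cells, with no overlap (log2 change 1.12 ± 0.44, FDR 0.0474). The call rested on 19 and 33 counts in all, and it was lost in 5 of 6 fits made without an ESC sample and with DESeq2 (FDR 0.0682), which called Neurog1 and Neurod4 instead. Groups in ESCs did not overlap for 3 members, Neurog1, Atoh1 and Neurod4, against 59.8% of all genes tested. In PSA-NCAM+ cells the Atoh1 groups overlapped (0.49 ± 0.35, FDR 0.237, and 0.14 without slow/slow replicate 1).

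Neurod1, which acts downstream of the neurogenins and is known for driving neuronal and endocrine differentiation, was the member with the highest level per length in WT NPCs. It stood at 0.304, 0.660 and 0.305 CPM in WT ESCs and reached 2.72, 2.31 and 2.68 CPM in WT NPCs (log2 change 2.67 ± 0.27, FDR 4.67e-08). In WT cells it then stayed within a narrow range, at 2.26, 1.63 and 2.13 CPM at the PSA-NCAM+ stage and at 1.93, 2.60 and 2.40 CPM in neurons. In slow/slow cells it was at 3.84, 3.70 and 3.23 CPM in NPCs, at 3.41, 4.43 and 4.32 CPM in PSA-NCAM+ cells and at 11.9, 15.5 and 13.6 CPM in neurons. Slow/slow samples lay above WT samples at each of these stages.

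For Neurod1 the genotype difference was not called in NPCs (log2 change 0.48 ± 0.23, FDR 0.0832) and was called in PSA-NCAM+ cells (1.01 ± 0.23, FDR 0.00103, and 1.14 without slow/slow replicate 1) and in neurons (2.56 ± 0.24, FDR 3.51e-08). The NPC difference was called when only NPC samples were fitted (0.47, FDR 0.00327, or 0.00763 with the replicate number as a block) and by DESeq2 (0.46, FDR 0.0317). It was called in 0 of 6 fits made without an NPC sample (highest FDR 0.204). With only PSA-NCAM+ samples fitted, the FDR at that stage was 0.0311, or 0.0260 with the block. The WT step from NPCs to neurons was -0.15 ± 0.23 (FDR 0.551), the slow/slow step was 1.92 ± 0.23 (FDR 2.89e-07), and the steps differed by 2.08 ± 0.33 (FDR 2.49e-05). Cerkl, which surrounds Neurod1, averaged no more than 1.02 CPM in any group. In neurons it averaged 0.0895 CPM across WT and 0.329 CPM across slow/slow samples. That difference was called (1.94 ± 0.48, FDR 0.00201), with the sign of the Neurod1 change. Cerkl was called lower in slow/slow NPCs (-1.15 ± 0.42, FDR 0.0264) and PSA-NCAM+ cells (-1.40 ± 0.40, FDR 0.00511), opposite in sign to Neurod1. In ESCs its means of 1.02 (WT) and 0.670 CPM (slow/slow) lay above those of Neurod1, 0.423 and 0.523 CPM. The part of reads from Cerkl in the Neurod1 level was not tested.

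Neurod4, known to act with Neurod1 and the neurogenins in brain and retina, showed the largest ratios of all members in NPCs and PSA-NCAM+ cells. It had 3 counts in each WT NPC sample (0.0624, 0.0453 and 0.0450 CPM) and was at 0.750, 3.36 and 2.37 CPM in slow/slow NPCs. In PSA-NCAM+ cells it was at 0.0463, 0.0973 and 0.0326 CPM across WT samples and at 2.53, 5.30 and 7.11 CPM in slow/slow cells. The WT samples at both stages were near the limit of detection, and no slow/slow sample overlapped them. The log2 changes were 5.35 ± 0.60 (FDR 9.03e-07) and 6.44 ± 0.57 (FDR 4.59e-08), the latter 6.78 without slow/slow replicate 1, and the ratio of summed counts per library size in NPCs was 37.1, with an exact 95% interval for counting error of 19.3 to 82.0. With only PSA-NCAM+ samples fitted, the FDR at that stage was 0.00314.

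In neurons Neurod4 was at 3.76, 5.42 and 6.37 CPM across WT samples and at 23.1, 23.9 and 21.8 CPM across slow/slow samples (log2 change 2.14 ± 0.39, FDR 0.000150). The slow/slow NPC and PSA-NCAM+ means of 2.16 and 4.98 CPM overlapped in range with each other and, for PSA-NCAM+ cells, with WT neurons at 5.19 CPM. The step from NPCs to neurons was larger in WT cells (6.65 ± 0.59) than in slow/slow cells (3.44 ± 0.42), a difference of -3.21 ± 0.75 (FDR 0.00146). In ESCs Neurod4 had 0 counts in all WT samples and 2, 3 and 2 counts in the slow/slow samples, at least 2.91-fold higher than a floor of 3 counts over the WT group, and the difference was not called (FDR 0.0625). It was called with the replicate number as a block (FDR 0.0300) and by DESeq2 (FDR 0.0119), but in 0 of 6 fits made without an ESC sample (highest FDR 0.130).

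Neurod2 and Neurod6, which act in postmitotic excitatory neurons of the cortex, were detected mainly in neurons. Neurod2 stood at 1.01, 1.38 and 1.06 CPM in WT neurons and at 1.89, 2.15 and 2.99 CPM in slow/slow neurons (log2 change 1.02 ± 0.37, FDR 0.0295). Neurod6 stood at 0.982, 0.899 and 0.885 CPM in WT neurons and at 2.09, 1.98 and 2.44 CPM in slow/slow neurons (1.23 ± 0.30, FDR 0.00646). The groups did not overlap for either gene, but the Neurod2 call was lost in 4 of the 6 fits that left out a neuron sample, and its change then ranged from 0.81 to 1.17.

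Before neurons Neurod2 had at most 2 counts in any sample of ESCs and NPCs, and Neurod6 had 0 counts in every sample but slow/slow PSA-NCAM+ replicate 3, with 2 counts. In PSA-NCAM+ cells Neurod2 had 0, 1 and 0 counts in WT and 3, 11 and 5 counts in slow/slow cells. That difference was called (FDR 0.00593, and 0.00476 without slow/slow replicate 1), with a ratio of summed counts per library size of 16.2 and an exact 95% interval for counting error of 2.57 to 671.2. Neurod6 in WT neurons was at least 55.3-fold higher than the floor of 3 counts over the WT NPC group, and in slow/slow neurons at least 112.3-fold higher than that over the slow/slow NPC group.

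Bhlhe22, a bHLH repressor that shapes the identity of cortical areas and spinal interneurons, was the member with the highest level per length in WT neurons and showed the smallest ratio there. It stood at 12.95, 11.9 and 11.7 CPM in WT neurons and at 19.4, 24.01 and 26.6 CPM in slow/slow neurons (log2 change 0.94 ± 0.18, FDR 0.000158). In NPCs it was at 0.312, 0.272 and 0.300 CPM across WT samples and at 0.841, 1.43 and 1.36 CPM in slow/slow cells (2.01 ± 0.23, FDR 4.18e-07). In PSA-NCAM+ cells it was at 0.648, 0.914 and 0.619 CPM across WT samples and at 2.21, 2.15 and 2.81 CPM in slow/slow cells (1.73 ± 0.20, FDR 4.29e-07, and 1.81 without slow/slow replicate 1). With only PSA-NCAM+ samples fitted, the FDR at that stage was 0.0115. Groups did not overlap at any of these stages.

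In ESCs Bhlhe22 was at 0.866, 0.975 and 1.13 CPM across WT samples and at 1.22, 1.08 and 1.24 CPM in slow/slow cells, an overlap with no call (0.25 ± 0.20, FDR 0.350). On leaving the ESC stage it fell in WT cells (-1.75 ± 0.23, FDR 1.24e-06), while the slow/slow change of 0.02 ± 0.20 was not called (FDR 0.957), and these steps differed by 1.76 ± 0.30 (FDR 0.000294). From NPCs to neurons it rose by 5.36 ± 0.23 in WT and 4.29 ± 0.21 in slow/slow cells, a difference of -1.08 ± 0.28 (FDR 0.00324).

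**Figure D2:**
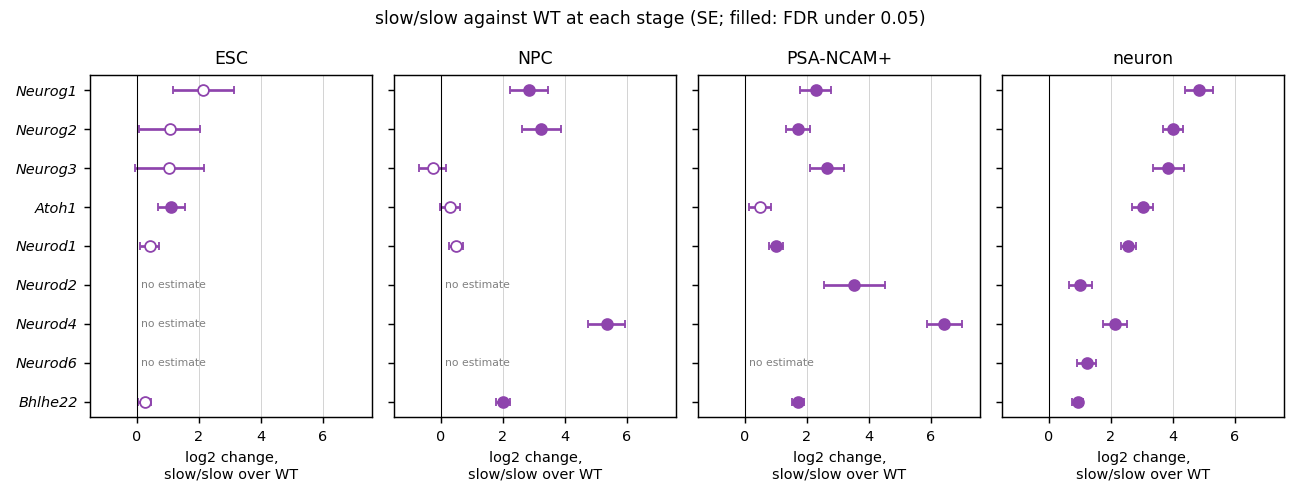
Log2 change of slow/slow over WT cells (horizontal axis) for each member (rows) at 4 stages, with SE as bars, filled points for FDR under 0.05 and no estimate where both groups were at or under the floor or all 3 WT samples were at 0. Filled points number 1, 4, 7 and 9 from the ESC to the neuron panel, all to the right of 0.

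Counted over the stages, 4 of the 9 members were called in NPCs, where 56.7% of all genes tested were called and 29.3% were called higher. These were Neurog1, Neurog2, Neurod4 and Bhlhe22, all higher in slow/slow cells. Groups did not overlap for 6 members in NPCs, against 74.7% of all genes. In PSA-NCAM+ cells 7 members were called, all higher, against 56.7% of all genes called and 28.6% called higher, and groups did not overlap for 7 members against 43.1% of all genes. Without slow/slow replicate 1 a count of 7 was again obtained at that stage, where the share of all genes called rose to 68.9%. Atoh1 and Neurod6 were the members not called there.

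Levels can be compared between members only per length, for which the authors' mean RPKM of each group was used. In WT neurons Bhlhe22 came first at 3.87 RPKM, followed by Neurod4 at 1.57, Neurog2 at 1.36 and Neurod1 at 0.863. In slow/slow neurons Neurog1 came first at 25.5 RPKM and Neurog2 followed at 24.3, ahead of Bhlhe22 at 8.15, Neurod4 at 7.63 and Neurod1 at 5.57. Both neurogenins therefore moved above Bhlhe22 in the order of levels. In NPCs Neurod1 (1.00 RPKM in WT and 1.35 in slow/slow cells) and Neurog3 (0.970 and 0.790) led in both genotypes, while Neurod4 ranked 7 of 9 in WT NPCs at 0.0133 RPKM and 3 of 9 in slow/slow NPCs at 0.667.

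**Figure D3:**
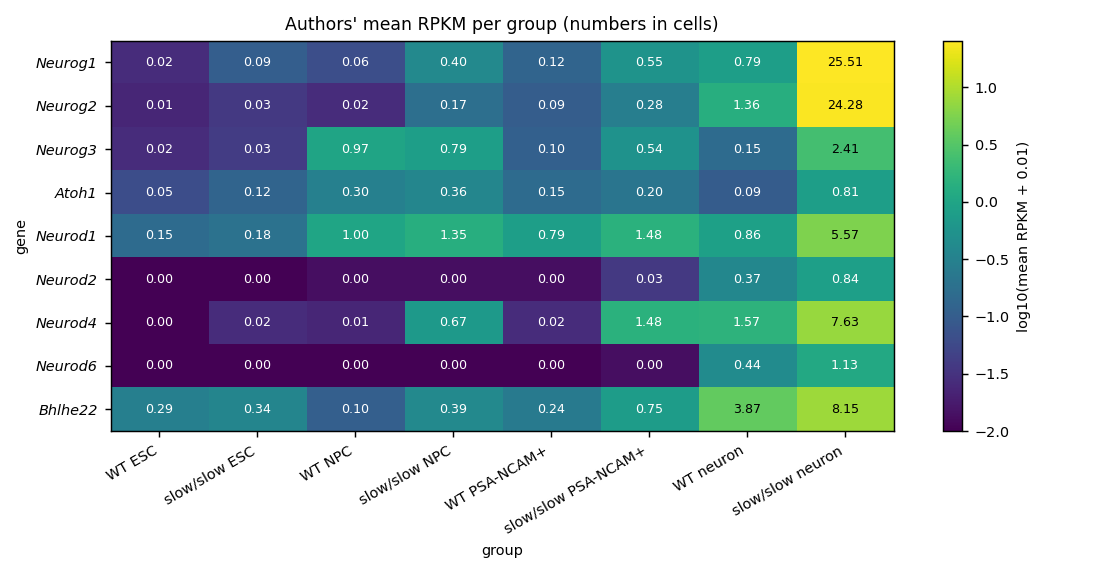
Authors' mean RPKM of each member (rows) in each of the 8 groups (columns), with the value in each cell and colour on a log10 scale. Slow/slow neurons hold the highest value of every row, led by Neurog1 at 25.5 and Neurog2 at 24.3 RPKM.

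The steps of differentiation were then compared within each genotype. From ESCs to NPCs, 5 members were called in WT cells, 4 higher and Bhlhe22 lower, where 65.6% of all genes were called, 34% higher and 31.6% lower. In slow/slow cells 6 were called, all higher, where 62.3% of all genes were called and 33.9% higher. Neurod4 was among the 4 higher in WT cells, on 9 counts in all against 0 in ESCs (at least 2.59-fold higher than the floor, FDR 0.0431), and that call was lost whenever an ESC or NPC sample was left out. From NPCs to PSA-NCAM+ cells, 4 members were called in WT cells, with Neurog2 and Bhlhe22 higher and Neurog3 and Atoh1 lower, where 41.3% of all genes were called, 21.8% higher and 19.5% lower. The Atoh1 call was lost in 3 of 6 fits made without an NPC or PSA-NCAM+ sample, where its change was -0.99 to -0.75 (FDR 0.0536 to 0.109). In slow/slow cells Neurod2, Neurod4 and Bhlhe22 were called, all higher, where 42.3% of all genes were called and 22.5% higher. Without slow/slow PSA-NCAM+ replicate 1 the slow/slow count rose from 3 to 5, with Neurog2 then called higher and Atoh1 lower, and without slow/slow NPC replicate 1 it fell to 2, with Neurod4 lost. With the replicate number as a block, Neurog2 (FDR 0.0459) and Atoh1 (FDR 0.0452) were called and Neurod2 was not (FDR 0.0501). The Neurod2 call was also lost in 3 of 6 fits made without an NPC or PSA-NCAM+ sample, and that of Neurod4 in 2. From NPCs to neurons, 8 members were called in WT cells, 6 higher and Neurog3 and Atoh1 lower, where 80.2% of all genes were called, 41.4% higher and 38.9% lower. In slow/slow cells 9 were called, all higher, where 75% of all genes were called and 38.4% higher. Neurod2 and Neurod6, counted as higher in both genotypes, passed the filter on low counts only through the neuron groups. Their calls over this step therefore follow in part from how they entered the test and carry no weight here.

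**Figure D4:**
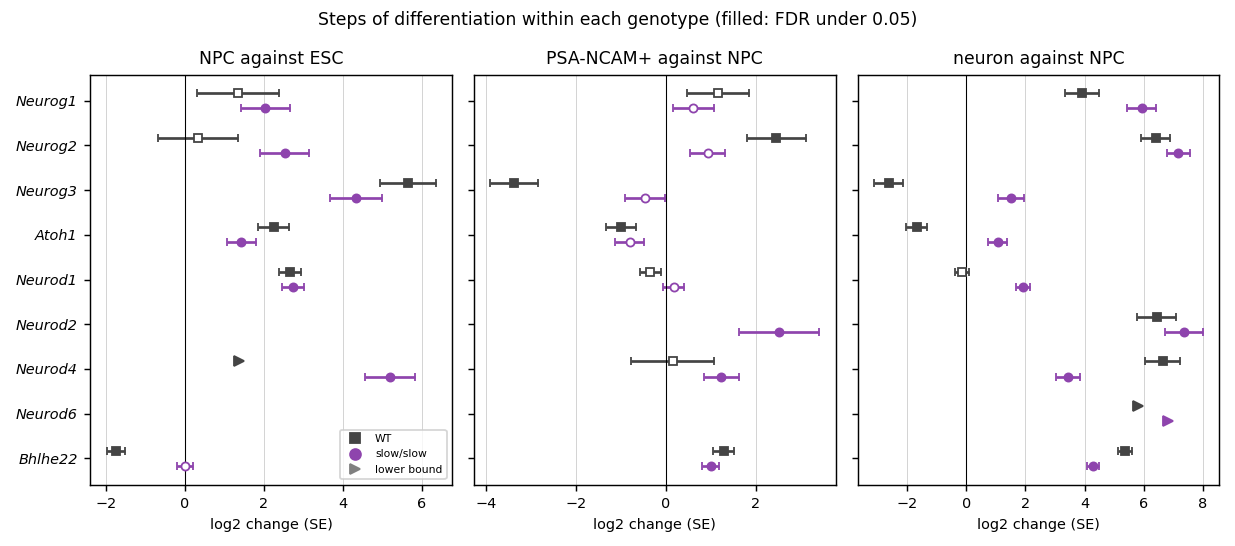
Log2 change of each member (rows) over 3 steps of differentiation, with squares for WT and circles for slow/slow cells, SE as bars, filled symbols for FDR under 0.05 and triangles for lower bounds against a group with 0 counts. In the step from NPCs to neurons, Neurog3 and Atoh1 lie left of 0 in WT cells (-2.62 and -1.67) and right of 0 in slow/slow cells (1.50 and 1.07).

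The test of whether a step differed between genotypes called 5 members for NPCs to neurons, 3 more positive and 2 less positive in slow/slow cells, against 55.1% of all genes, 24.7% more and 30.4% less positive. The slow/slow step was the more positive for Neurog3, Atoh1 and Neurod1 and the less positive for Neurod4 and Bhlhe22. For Neurog1 the difference of 2.01 ± 0.85 was just outside the threshold (FDR 0.0504). It was called with the replicate number as a block (FDR 0.0305), with DESeq2 size factors (FDR 0.0443), with upper-quartile scaling (FDR 0.0356) and by DESeq2 (FDR 0.0127). It was not called without a filter on low counts (FDR 0.0549). Of 12 fits made without an NPC or neuron sample, 4 called it, and the highest FDR was 0.167. For Neurog2 it was 0.77 ± 0.94 (FDR 0.507). For ESCs to NPCs the test called Bhlhe22 alone of the 9, against 24.6% of all genes and 13.6% in that direction, and for NPCs to PSA-NCAM+ cells Neurog3 alone, against 14.6% and 7.52%.

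Each member's expression profile over the 24 samples was compared with those of all genes tested, as Pearson's r of log2(CPM + 0.5). The samples share their stages and genotypes, so these values describe likeness only. Neurog1 was most like 3110035E14Rik (r = 0.987), Neurog2 (0.981) and Zcchc16 (0.979), and Neurog2 most like Prrxl1 (0.991), Galntl6 (0.990) and 3110035E14Rik (0.990). Neurog3 was most like Sox18 (0.929), Azi1 (0.925) and H2-Ab1 (0.908), and Atoh1 most like Tcfap2e (0.932), Tcf21 (0.914) and Sox18 (0.908). Neurog3 resembled Neurod1 (0.875) and Atoh1 (0.874) more than it resembled Neurog1 (0.720) or Neurog2 (0.640).

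Among the NeuroD genes, Neurod1 was most like Synpo2 (r = 0.974), Prrg3 (0.960) and Mfap2 (0.954). Neurod2 was most like Neurod6 (0.992), Gpr30 (0.992) and Htr2a (0.992), and Neurod6 most like Evx2 (0.996), Klhl1 (0.995) and 6330527O06Rik (0.994), genes whose values over most samples are at or near 0. Neurod4 was most like Epha3 (0.981), Hoxa2 (0.978) and Ebf2 (0.974), and Bhlhe22 most like Rgma (0.987), Pou3f3 (0.984) and Dcc (0.984). The lowest correlation between members was that of Neurog3 and Bhlhe22 (0.397).

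Genes that act with or after the proneural factors were counted from lists of known partners, inhibitors and targets. In NPCs, PSA-NCAM+ cells and neurons, 56.7%, 56.7% and 51.9% of all genes tested were called between genotypes, and 29.3%, 28.6% and 23.4% were called higher in slow/slow cells. Without slow/slow PSA-NCAM+ replicate 1, the list counts given for that stage were obtained again, except that 1 Hes or Hey gene was also lower. With only PSA-NCAM+ samples fitted, 23.3% of all genes were called and some list counts fell. There 2 Id genes and 5 other neural bHLH genes were higher. Of the genes downstream of neurogenins 6 were higher and 1 lower, and of those of cortical projection neurons 2 and 1. Of the 3 E proteins (Tcf3, Tcf4 and Tcf12), the partners with which proneural factors bind DNA, all 3 were higher in slow/slow NPCs, PSA-NCAM+ cells and neurons alike. Tcf12 had the largest change in neurons (log2 change 1.49 ± 0.12, FDR 8.32e-09) and Tcf4 in NPCs (1.26 ± 0.12) and PSA-NCAM+ cells (1.44 ± 0.12). Of the 4 Id inhibitors, 3 were higher and 1 lower in NPCs, 3 higher in PSA-NCAM+ cells, and 3 higher and 1 lower in neurons. Id2 led in NPCs (1.97 ± 0.14) and Id1 in neurons (1.91 ± 0.18).

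Of the 6 Hes and Hey repressors, some of which transmit Notch signals, 2 were higher at the NPC and PSA-NCAM+ stages. In neurons 3 were higher and 1, Hes3, was lower (log2 change -1.45 ± 0.53, FDR 0.0284). Hes3 led in NPCs (log2 change 5.60 ± 0.71, FDR 2.05e-06) and Heyl in neurons (5.61 ± 1.01, FDR 0.000105), where it averaged 0.543 CPM across WT samples and 27.2 CPM in slow/slow cells. Of 12 genes placed downstream of the neurogenins, 7 were higher and 1 lower in NPCs, 8 and 2 at the PSA-NCAM+ stage, and 9 and 1 in neurons, with medians of 0.98, 1.45 and 1.32 against 0.01, -0.01 and -0.06 for all genes. Insm1, a zinc-finger factor of new neurons, averaged 1.46 CPM ± 0.0648 (SD, n = 3) among WT NPCs but 32.3 CPM ± 1.24 among slow/slow NPCs (4.47 ± 0.27), and Ebf2, a helix-loop-helix factor of early neurons, 10.0 CPM ± 0.342 and 71.4 CPM ± 5.49 in neurons (2.83 ± 0.25).

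Of 5 tested genes placed downstream of Atoh1, 1 was higher and 1 lower in NPCs, 1 was higher in PSA-NCAM+ cells, and 4 were higher in neurons, led by Lhx2 (log2 change 3.13 ± 0.21, FDR 4.34e-10). Of 7 genes of cortical projection neurons, 5 were higher and 1 lower in NPCs, 4 and 1 at the PSA-NCAM+ stage, and 3 higher in neurons, led there by Prdm8 (1.85 ± 0.30). When only neuron samples were fitted, 5 of these were higher and 1 lower. Among 9 tested genes for other neural bHLH factors, 6 were higher and 1 lower in NPCs, 6 were higher in PSA-NCAM+ cells, and 6 were higher and 3 lower in neurons. Olig3, a factor of dorsal spinal progenitors, led in NPCs (6.61 ± 0.48) at 0.767 CPM across WT samples and 75.4 CPM in slow/slow cells, and Olig1, a factor of the oligodendrocyte lineage, was lower in neurons (-7.36 ± 0.35) at 38.4 CPM across WT samples and 0.218 CPM in slow/slow cells. The neural bHLH family as a whole was therefore not uniformly higher in slow/slow neurons.

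**Figure D5:**
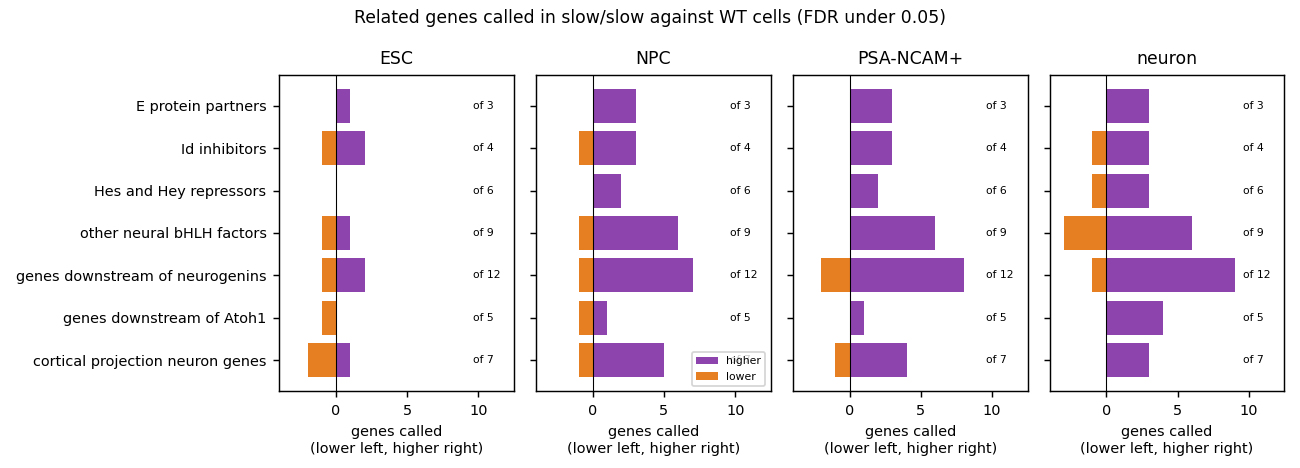
Number of genes called higher (right of 0) or lower (left of 0) in slow/slow relative to WT samples, by stage, for 7 lists of genes related to the proneural factors, with the number of genes tested at the right. The list of 12 genes downstream of neurogenins has 9 higher and 1 lower in neurons, and the other neural bHLH factors 6 higher and 3 lower.

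Markers of the sampled cells were examined beside these results. Of the neuron markers Rbfox3, Tubb3, Dcx and Syn1, 0 were at 0 counts in any neuron sample, and they summed to between 2202 and 2377 CPM across WT samples and between 2173 and 2330 CPM in slow/slow neurons, where 0 of 4 were called higher and 2 lower, led by Syn1 (log2 change -1.87 ± 0.17). When only neuron samples were fitted, 1 of the 4 was higher and 3 were lower. The summed levels of the neuron markers thus overlapped between genotypes, while single markers differed. The progenitor markers Pax6 and Nes were both higher, and summed to 246.6 to 296.0 CPM across WT samples and 415.3 to 470.2 CPM in slow/slow neurons. The 5 glia markers summed to 12.97 to 14.4 CPM across WT samples and 22.8 to 26.9 CPM in slow/slow neurons, with 3 called higher and 1 lower. The endoderm markers Sox17, Foxa2 and Gata6 summed to 42.7 to 49.8 CPM and to 24.1 to 33.5 CPM, with 2 called higher and 1 lower. The part of these markers in the changes of the members was not tested.

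Before the neuron stage the neuron markers were also higher in slow/slow cells. They summed to 45.3 to 57.5 CPM in WT ESCs and 122.5 to 151.8 CPM in slow/slow ESCs, with 2 of 4 called higher. They summed to 27.6 to 28.0 CPM across WT samples and 104.3 to 123.6 CPM in slow/slow NPCs, with 3 of 4 called higher. In PSA-NCAM+ cells they summed to 22.6, 34.5 and 35.6 CPM across WT samples and to 53.9, 160.2 and 250.4 CPM in slow/slow cells, with 4 of 4 called higher, or 2 of 4 when only the samples of that stage were fitted. Slow/slow replicate 1 had the lowest of these slow/slow sums and also the lowest slow/slow level of Neurog1, Neurog2, Neurog3, Neurod1 and Neurod4. Its level was the highest for Atoh1 (0.633 against 0.288 and 0.338 CPM) and not the lowest for Neurod2 and Bhlhe22. The pluripotency markers Pou5f1, Nanog and Zfp42 still summed to 1309 to 1378 CPM across WT samples and 999.98 to 1090 CPM in slow/slow NPCs, and to 816 to 1060 and 364 to 527 CPM in PSA-NCAM+ cells. The part of these markers in the changes of the members was not tested. Sox1, Map2 and Gfi1 were not analysed here.

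Splicing of the members could be described only where junction reads sufficed, since the coding sequence of each is unspliced. The splicing table listed 5 events in 4 members, of which 4 were introns (Neurog2, Neurod1, Neurod4 and Neurod6) and 1 was an alternative 5′ splice site of Neurod4. With at least 15 reads required, the retained fraction (PSI) of the Neurog2 intron (mm9, chromosome 3, 127336376 to 127336645) was 3.65%, 4.92% and 1.82% in slow/slow neurons and 9.43% in the only WT neuron sample with enough reads. For the Neurod1 intron (mm9, chromosome 2, 79295206 to 79296707), PSI was 11.3%, 7.22% and 9.09% in slow/slow neurons and 2.22% and 0% in the pair of WT neuron samples with enough reads, of 23 reads each. For the Neurod4 intron, PSI was 5.60%, 7.38% and 3.45% in slow/slow neurons and 9.09% and 0% in WT neurons. The Neurod6 intron had enough reads in 1 neuron sample only, where PSI was 0%. The major 5′ splice site of Neurod4 was used in 93.8%, 92% and 82.4% of reads in slow/slow neurons and in 100% of 15 and 37 reads in WT neurons. WT neuron replicate 1, under the limit at 13 reads, used it in 76.9%, below every slow/slow neuron sample. No test was made on these values.

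The members' chromosomes did not as a whole move with them. Median log2 changes of slow/slow over WT cells for all genes tested on the 6 chromosomes lay between -0.11 and -0.03 in neurons and between -0.06 and 0.15 in NPCs.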

How the data were processed

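Poly(A)+ libraries were mapped by the authors to mm9 and processed with vast-tools. The authors deposited raw counts per gene and sample, RPKM as means over the replicates of a group, and PSI as percent values with read counts and quality scores in a score string. Whether counting used strand is not given in the sources used here, so reads of Neurog3 and Neurod1 and of the genes around them may not be separable. Deposited log2 changes and p-values of the authors' own comparisons were not used. The 9 members and all lists were chosen with earlier results of these data known. Counts were tested with edgeR 4.0.16 in R 4.3.3: filterByExpr by group, TMM scaling, and the quasi-likelihood F test in a model of 8 group means over 24 samples with 16 residual degrees of freedom, Benjamini-Hochberg adjusted over 16627 genes. SE was derived from the F statistic. The procedure was tested on simulated data with 200 changed genes. Levels are TMM-scaled CPM. Named genes were the 9 members, the 3 genes most correlated with each, and from each list the called gene with the largest change. Alternatives were DESeq2 1.42.0, other scalings, no filter, a replicate block, the samples of a stage alone, and leaving out each sample. Deviations of same-numbered WT and slow/slow samples from their group means correlated by 0.456 to 0.578 in PSA-NCAM+ cells. Other pairs there also correlated, WT 2 with slow/slow 3 by 0.488 and WT 3 with slow/slow 2 by 0.282. Replicate 1 correlated negatively with the other replicates of the other genotype, so the numbers set apart only replicate 1. Same-numbered samples correlated by -0.107 on average in NPCs, -0.014 in ESCs and -0.047 in neurons. No libraries were identical. Promoters came from RefSeq (GRCm38.p6), gene positions from GENCODE (GRCm38), and splicing coordinates are mm9. Depth was 32974432 to 104466886 counts per sample. One list of cell type markers is not reported here.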

Additional observations from a re-analysis of the deposited data

Results flagged for a closer look

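Several members differed between stages in their response to the genotype, by a test of the interaction itself with edgeR's quasi-likelihood test. Such differences were common among all genes tested. They were called for 55.1% of genes from NPCs to neurons, 24.6% from ESCs to NPCs and 14.6% from NPCs to PSA-NCAM+ cells. The number of members called therefore did not set them apart from other genes. For the step from NPCs to neurons, the slow/slow change minus the WT change was 4.12 for Neurog3 (FDR 2.76e-05), 2.73 for Atoh1 (FDR 6.70e-05), 2.08 for Neurod1 (FDR 2.49e-05), -3.21 for Neurod4 (FDR 0.00146) and -1.08 for Bhlhe22 (FDR 0.00324), all on the log2 scale. For the step from ESCs to NPCs it was 1.76 for Bhlhe22 (FDR 0.000294), and for the step from NPCs to PSA-NCAM+ cells it was 2.92 for Neurog3 (FDR 0.00816). Neurog3 and Atoh1 were the members whose step from NPCs to neurons was called in opposite directions in the genotypes. The WT NPC level of Neurod4, on which its value rests, was 3 counts in each sample.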

How the results depend on the processing

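Apart from leaving out samples, the alternatives kept direction and side of the threshold in 522 values of the members' changes, brought 13 past it, took 5 below it and turned 3, all of them not called. Of the 4 genotype counts, that of ESCs moved from 1 to 0 with upper-quartile scaling, without a filter on low counts and with only ESC samples, with or without the replicate block, and to 2 with the replicate block over all samples (Atoh1 and Neurod4) and with DESeq2 (Neurog1 and Neurod4). Leaving out each sample gave 0 to 1 called members for ESCs, 4 for NPCs, 7 for PSA-NCAM+ cells, 8 to 9 for neurons, and 2 to 5 for NPCs to PSA-NCAM+ cells in slow/slow cells. The replicate block moved no other count of members by over 1.5 times. With only PSA-NCAM+ samples, 5 members were called and Neurod2 was not tested, or 6 with the replicate block, while calls over all genes went from 9424 to 3641 and to 6473. Upper-quartile scaling moved the median change of all genes in neurons from -0.06 to 0.08, and all 9 members stayed called. None of the changes that turned was called. The slow/slow change of Bhlhe22 from ESCs to NPCs was -0.022 with DESeq2 size factors, -0.040 with DESeq2 and -0.15 to 0.22 leaving out samples, and the Neurod1 difference of steps from ESCs to NPCs was -0.0091 with DESeq2 and -0.33 to 0.37. Leaving out samples, Neurog2 in WT cells from ESCs to NPCs ranged from -0.025 to 0.91, Neurod4 in WT cells from NPCs to PSA-NCAM+ cells from -0.28 to 0.41, Neurog1 in slow/slow cells over that step from -0.082 to 0.97, the Neurog1 difference of steps from ESCs to NPCs from -0.68 to 1.45, and that of Atoh1 from NPCs to PSA-NCAM+ cells from -0.16 to 0.43. The causes were not tested. A group left with fewer samples was assumed to vary like the others. Low counts limit ESCs most, where 7 of 9 members had at most 33 counts over the 3 samples of a group.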
